A study of Mus musculus with 45 samples.

Results

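Axin2, Notum, Nkd1, Nkd2, Znrf3, Lgr5, Lgr6, Dkk2, Lef1 and Tcf7 are genes known as transcriptional targets of Wnt/beta-catenin signalling. They were taken by name, not by a measured value, but earlier results of these data were known when they were chosen. They are 10 of the 35675 mouse genes whose reads were summed from the deposited transcript files. All 10 were among the 17325 genes that passed the filter on low counts. Their levels were followed by bulk RNA-seq in 45 libraries that form 15 groups of 3. Every group carried a Pax7-nGFP reporter, a nuclear green fluorescent protein that marks cells with active Pax7, on the background that the labels write as Tg:Pax7-nGFP/C57BL6;DBA2. Mouse embryonic fibroblasts (MEFs) with a doxycycline-inducible MyoD, the transcription factor that turns fibroblasts into muscle cells, were sampled untreated. They were sampled again after 2, 4, 6, 8 and 10 days of doxycycline alone, a culture labelled as myotubes, and after the same times with F/R/C, labelled as muscle fibres with progenitor cells. Bulk induced myogenic progenitor cells (iMPCs) had been kept in F/R/C medium after 13 days of doxycycline with F/R/C. Sorted Pax7-GFP+ iMPCs, bulk primary myoblasts from skeletal muscle and sorted Pax7-GFP+ myoblasts completed the set. The labels do not spell out F/R/C. In published work on iMPCs the letters stand for forskolin, the TGF-beta receptor inhibitor RepSox and an inhibitor of the kinase GSK3, and since they were always given together, the share of each in a difference cannot be told apart.

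In the Wnt/beta-catenin pathway a secreted Wnt binds a Frizzled receptor and the co-receptor Lrp5 or Lrp6, which halts the complex of Axin, Apc and GSK3 that otherwise marks beta-catenin for destruction. Beta-catenin then reaches the nucleus and, with DNA-binding factors of the TCF/LEF family, switches on target genes. Blocking GSK3 stabilises beta-catenin without a Wnt. Many targets act back on the pathway: Axin2, Nkd1, Nkd2, Notum and Znrf3 damp it, Lgr5 and Lgr6 are receptors for R-spondins, which strengthen it, Dkk2 is a secreted ligand of the Lrp co-receptors, and Lef1 and Tcf7 are themselves TCF/LEF factors. In muscle the pathway is studied for its roles in satellite cells, the Pax7-bearing stem cells, and in the differentiation of myoblasts.

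Promoter sequence was at hand for 7 of the 10 genes, as 11 RefSeq windows (build GRCm38.p6) that run from 250 bases before to 50 bases after a transcription start. Shown 5′ to 3′ on the strand of the gene are the 100 bases before the start of a gene that was higher with F/R/C (Axin2, plus strand) and of 2 that were lower (Lgr6, minus strand, and Dkk2, plus strand), since these open the account below, and the 250 bases before the innermost Lef1 start (plus strand), the stretch that held a match. Capitals mark the match.
Axin2, chr11:108920249-108920348: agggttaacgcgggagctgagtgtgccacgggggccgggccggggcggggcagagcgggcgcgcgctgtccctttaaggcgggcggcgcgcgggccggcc
Lgr6, chr1:135105277-135105376: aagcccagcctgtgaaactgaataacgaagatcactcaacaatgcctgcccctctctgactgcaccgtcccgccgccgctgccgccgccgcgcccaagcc
Dkk2, chr3:132085192-132085291: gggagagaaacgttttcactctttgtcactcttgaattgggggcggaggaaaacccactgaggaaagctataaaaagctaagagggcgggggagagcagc
Lef1, chr3:131156044-131156293: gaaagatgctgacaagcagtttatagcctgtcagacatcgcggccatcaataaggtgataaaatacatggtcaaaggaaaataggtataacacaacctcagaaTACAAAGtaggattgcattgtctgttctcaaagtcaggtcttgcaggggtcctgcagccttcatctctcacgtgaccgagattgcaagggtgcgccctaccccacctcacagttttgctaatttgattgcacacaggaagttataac
Each window was searched on both strands for the word CTTTGAA and for 3 variants of its last bases, which were CTTTGAT first, CTTTGTA next and finally CTTTGTT, all short forms of the element that TCF/LEF factors bind. A word was found in 1 of the 11 windows, TACAAAG with its first base at position -147 from the innermost Lef1 start, which lies in an intron of the outer Lef1 transcripts in GENCODE M21. Of all 32851 promoter windows in the table, 5544 (16.9%) held at least 1 of the words. A match is a string of letters and not a measured binding site, and the words were looked for in these windows alone.

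The 10 genes lie on 6 chromosomes, with Axin2, Notum, Znrf3 and Tcf7 all on chromosome 11 (GENCODE M21, GRCm38). Axin2 spans chr11:108920349-108950783 (plus strand), Notum chr11:120653788-120661175 (minus), Znrf3 chr11:5276324-5444847 (minus) and Tcf7 chr11:52252371-52283014 (minus). Lef1 (chr3:131110471-131224356, plus) and Dkk2 (chr3:132085292-132180304, plus) are neighbours on chromosome 3, with 860.936 kb between the end of Lef1 and the start of Dkk2. The others are Lgr5 (chr10:115450311-115587780, minus), Lgr6 (chr1:134983301-135105276, minus), Nkd1 (chr8:88521354-88594884, plus) and Nkd2 (chr13:73818534-73847631, minus).

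Libraries held 15.6 to 36.3 M reads (median 22.1 M), the bulk iMPC libraries and bulk myoblast replicate 2 being the deepest (33.2 M or more). Levels are given as counts scaled to TMM-adjusted library sizes (CPM), with the libraries of a group in the order of replicates 1, 2 and 3, and group values as mean ± SD over the 3 libraries. The induced gene Myod1 had a mean of 3.55 CPM in MEFs, and on day 2 of 2625 CPM with MyoD alone and 959 CPM with F/R/C, where reads of the transgene and of the cell's own gene cannot be told apart. Pax7 was at 0 reads in the F/R/C libraries of day 2, so the labelled progenitor cells were not seen in them by this marker, and ran from 47.1 to 75.7 CPM in those of day 10. It stayed at or below 0.198 CPM in every library of MyoD alone. The summed level of 12 muscle differentiation markers was 55.1 to 173 CPM in MEFs and 10249 CPM or more in every time-course library with doxycycline. Replicate 3 of all 11 time-course groups stood apart in sex-linked transcripts, with 146 to 180 CPM from Y-linked genes and at most 0.414 CPM of Xist, against 262 to 677 CPM of Xist in the other 22 libraries. The labels do not say whether replicates came from separate embryos or cultures, so p-values measure the spread between these libraries. Since replicate 3 kept its sex-linked pattern on every day, libraries of 1 number on different days may share a source.

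F/R/C did not shift the 10 targets in 1 direction. Averaged over the 5 days, Axin2, Notum, Lgr5 and Nkd2 were higher with F/R/C than with MyoD alone, Lgr6 and Dkk2 were lower, and Nkd1, Znrf3, Lef1 and Tcf7 were not called. A call required an adjusted p (Benjamini-Hochberg, over all 17325 genes) below 0.05 together with a log2 fold change of 1 or more in size. The count of 4 higher and 2 lower among the 10 stood against 22.1% of all tested genes called in this average (11.6% higher and 10.5% lower). The average treats the libraries of different days as independent, and where those of 1 number share a source its standard errors and p-values need not hold. They are too small where the source acts within 1 arm only, and can be too large where it acts alike in both arms. The median log2 fold change was 0.12 over the 10 genes and -0.03 over all genes tested. In bulk RNA a lower level can come from fewer cells of a type or from less RNA per cell, and these cannot be told apart.

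Day by day the call set changed. On day 2 no member was called higher by edgeR (4 higher at an unadjusted p under 0.05, and 2 called higher by DESeq2, Axin2 and Nkd2), while Lgr6, Lef1 and Tcf7 were lower (4.93% of all genes, 2.13% higher and 2.80% lower). These shares are of the edgeR calls, and none is given for the unadjusted p or for DESeq2, so those 2 counts have no background here. On day 4 Axin2, Notum and Lgr5 were higher and Lgr6 and Lef1 lower (13.2% of all genes, 6.58% higher and 6.66% lower). On days 6 and 8 Axin2, Notum and Lgr5 were higher and Lgr6 and Dkk2 were lower, beside 15.4% of all genes on day 6 (8.23% higher and 7.14% lower) and 18.7% on day 8 (9.20% higher and 9.46% lower). On day 10 Notum, Lgr5 and Lef1 were higher and Lgr6 and Dkk2 lower, beside 23.3% of all genes (9.91% higher and 13.4% lower). On days 2 and 10 the libraries of the arms did not overlap for 6 members (3 above and 3 below on day 2, 4 above and 2 below on day 10), beside 37.8% and 47.9% of all genes whose libraries did not overlap. On day 4 that held for 4 above and 4 below (46.2% of all genes), on day 6 for 3 and 2 (48.8%) and on day 8 for 4 and 2 (46.8%).

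**Figure D1:**
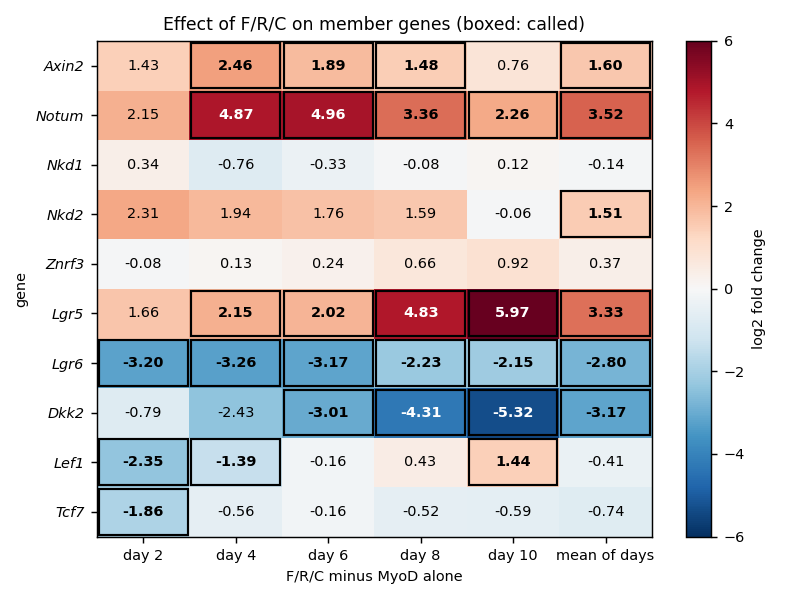
Log2 fold change of F/R/C minus MyoD alone for each gene (rows) on each day and in the mean of days (columns). Colour gives the size and sign, boxed cells were called; Lgr6 is negative throughout, and Lef1 runs from -2.35 on day 2 to 1.44 on day 10.

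Axin2, the scaffold of the beta-catenin destruction complex that is the most widely used readout of the pathway, was called higher in the F/R/C arm on days 4, 6 and 8, and its libraries overlapped between the arms on day 10. On day 2 its level was 3.13, 7.36 and 7.36 CPM with F/R/C, against 1.70, 2.87 and 2.07 CPM under MyoD alone. All F/R/C libraries lay above those of MyoD alone, but the log2 fold change of 1.43 (SE 0.52, adjusted p = 0.0871) was not called. On day 4 the libraries read 16.6, 20.9 and 15.6 CPM against 2.75, 2.54 and 4.40 CPM, the widest gap of the course, with a fitted log2 difference of 2.46 (SE 0.53, adjusted p = 8.87e-04). With F/R/C the level then stayed between 12.6 and 18.2 CPM from day 6 on, while with MyoD alone the group mean went from 3.23 ± 1.02 CPM on day 4 to 7.98 ± 4.70 CPM on day 10. The fitted log2 difference came to 1.89 (SE 0.51, adjusted p = 0.00676) on day 6 and 1.48 (SE 0.51, adjusted p = 0.0239) on day 8. The call on day 6 was lost when replicate 1 or replicate 2 was left out of every group (1.73, adjusted p = 0.113 and 2.07, adjusted p = 0.0534). The call on day 8 was lost without replicate 1 or without replicate 3 of MyoD alone (1.17 to 1.55, adjusted p from 0.0525 to 0.121). On day 10 the libraries overlapped, at 13.8, 12.6 and 14.2 CPM with F/R/C, against 7.31, 13.0 and 3.66 CPM under MyoD alone, and the difference of 0.76 (SE 0.50, adjusted p = 0.226) was not called. It was called without replicate 2 of MyoD alone, the library at 13.0 CPM (1.41, adjusted p = 0.0476).

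Notum, a secreted enzyme that inactivates Wnt proteins by removing their lipid, had the largest log2 fold change of the 10 genes on days 4 and 6 and very few reads with MyoD alone. On day 4 it had 153, 35 and 66 reads with F/R/C and 4, 2 and 2 reads with MyoD alone. On day 6 it had 173, 56 and 49 reads against 5, 1 and 2. The F/R/C libraries lay above those of MyoD alone on days 4, 6, 8 and 10 and overlapped with them on day 2, when 1 of the 3 F/R/C libraries had 6 reads. The ratio of pooled, depth-scaled reads was 31.1 on day 4 (exact 95% interval 15.5 to 72.8), 33.3 on day 6 (16.7 to 78.0), 9.78 on day 8 (6.43 to 15.5) and 5.12 on day 10 (3.49 to 7.72), where the intervals cover counting error only. The fitted log2 fold change was 4.87 (SE 0.85, adjusted p = 1.16e-04) on day 4 and 2.26 (SE 0.73, adjusted p = 0.0138) on day 10. The day 10 call was lost when replicate 1 or replicate 3 was left out of every group (2.13, adjusted p = 0.0842 and 2.08, adjusted p = 0.101). On day 2 it was 2.15 (SE 0.80, adjusted p = 0.0959) and not called. With F/R/C the level of replicate 1 was the highest on every day, at 1.56 CPM on day 2 and 7.94 CPM on day 6.

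Nkd1 and Nkd2 are related proteins that bind Dishevelled and restrain Wnt signalling, and they parted. Nkd1 was at 0.791, 0.650 and 0.254 CPM in MEFs and on day 4 reached 69.8, 123 and 71.4 CPM under MyoD alone, with 50.9, 51.8 and 53.7 CPM in the F/R/C arm. That day was the only 1 on which the arms did not overlap, with F/R/C below, and the difference of -0.76 (SE 0.48, adjusted p = 0.274) was not called. The mean of days was -0.14 (SE 0.22, adjusted p = 0.598). Nkd2 was higher with F/R/C in the mean of days, at 1.51 (SE 0.34, adjusted p = 2.36e-04). The edgeR fit of all libraries without a replicate term called it on no single day. DESeq2, also without that term, called Nkd2 higher on day 2. On day 2 it read 5.0, 2.58 and 7.96 CPM with F/R/C, against 1.75, 0.401 and 0.944 CPM under MyoD alone, and all F/R/C libraries were above. The fitted log2 difference came to 2.31 (SE 0.77, adjusted p = 0.0569) on day 2 and 1.94 (SE 0.76, adjusted p = 0.0606) on day 4. With the replicate number as a block shared by all 15 groups, which is not a pairing of these 2 arms alone, it was called on both days. The values were 2.49, adjusted p = 0.0173 on day 2 and 1.86, adjusted p = 0.0389 on day 4. With F/R/C replicate 1 was the highest on days 4, 6 and 8, at 9.12, 8.86 and 7.99 CPM against 1.30 to 3.33 CPM in the others. Replicate 1 was again the highest on day 10, at 3.78 CPM, when the lowest F/R/C library was at 1.06 CPM. By day 10 the difference was -0.06 (SE 0.73, adjusted p = 0.957).

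**Figure D2:**
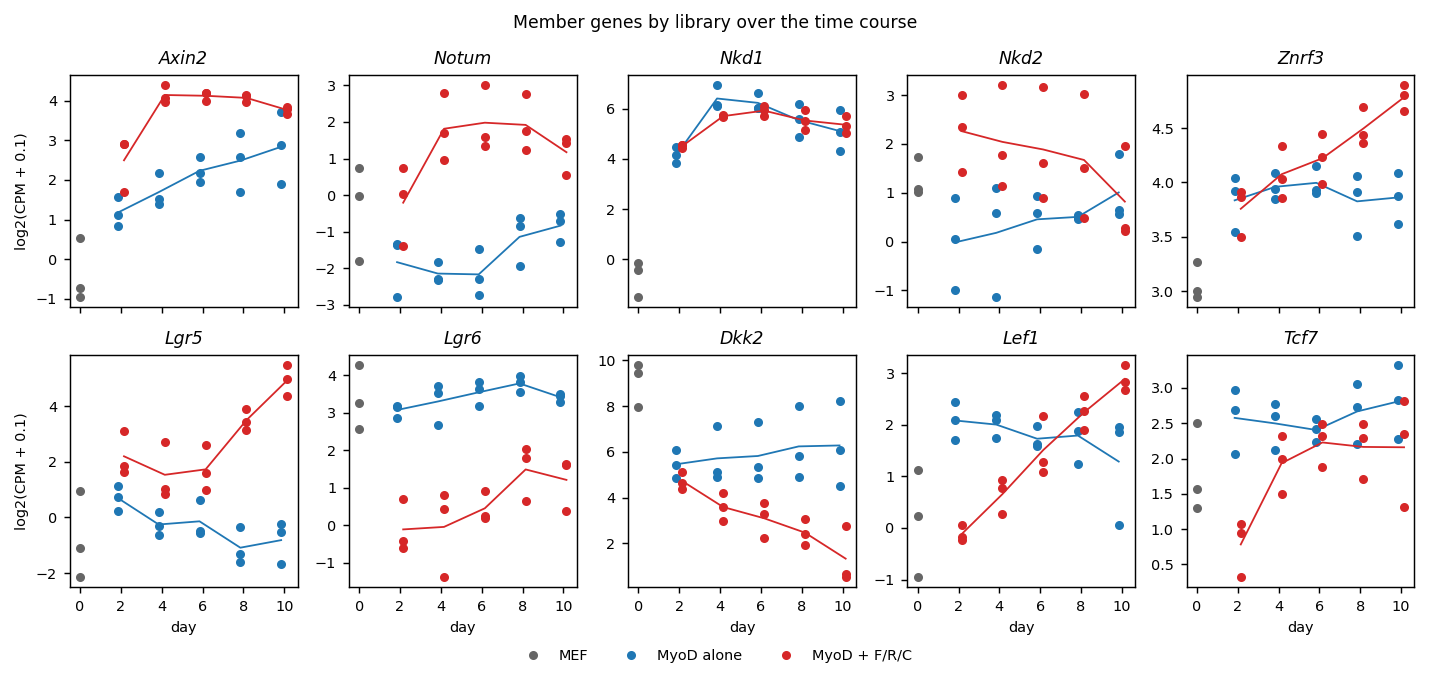
Level of each gene as log2(CPM + 0.1) against day for MEFs (grey, day 0), MyoD alone (blue) and MyoD with F/R/C (red), where points are libraries and lines join group means of the plotted values. Axin2, Notum and Lgr5 run above MyoD alone over most of the course, Lgr6 and Dkk2 below, and the Lef1 lines cross between days 6 and 8.

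Lgr5 and Lgr6 are close relatives, both receptors for R-spondins, and were called in opposite directions. Lgr5, a marker of stem cells in several epithelia, was 3.04, 3.47 and 8.56 CPM with F/R/C, against 1.07, 1.55 and 2.11 CPM under MyoD alone on day 2. On day 10 it was 31.2, 44.5 and 20.4 CPM with F/R/C, against 0.602, 0.743 and 0.209 CPM under MyoD alone. The F/R/C libraries were above on every day. The log2 fold change grew from 1.66 (SE 0.72, adjusted p = 0.157), not called, on day 2 to 4.83 (SE 0.84, adjusted p = 7.60e-05) on day 8 and 5.97 (SE 0.85, adjusted p = 4.28e-06) on day 10. The effect on day 10 exceeded that on day 2 by 4.31 (SE 1.05, adjusted p = 0.0133), a test of the difference itself in which 6.01% of all genes were called (2.24% higher and 3.77% lower). That call was lost when replicate 1 or replicate 2 was left out of every group at once (4.42, adjusted p = 0.0769 and 4.18, adjusted p = 0.158). The smaller effects of 2.15 (SE 0.76, adjusted p = 0.0372) on day 4 and 2.02 (SE 0.75, adjusted p = 0.0433) on day 6 depended on single libraries. The day 4 call was lost without any library of MyoD alone or without replicate 3 with F/R/C (1.28 to 2.46, adjusted p from 0.0560 to 0.302). The day 6 call was lost without replicate 1 or 3 of MyoD alone or without replicate 2 or 3 with F/R/C (1.5 to 2.19, adjusted p from 0.0576 to 0.199), and with no filter on low counts (2.06, adjusted p = 0.0568).

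Lgr6 was 19.3, 5.81 and 9.57 CPM in MEFs and lay between 6.25 and 15.6 CPM in every library of MyoD alone, while all F/R/C libraries lay below those of MyoD alone on all 5 days. On day 2 it read 1.52, 0.563 and 0.644 CPM with F/R/C, against 8.90, 7.23 and 9.04 CPM under MyoD alone. The fitted log2 difference came to -3.20 (SE 0.65, adjusted p = 0.00186) on day 2, -3.26 (SE 0.65, adjusted p = 4.32e-04) on day 4 and -3.17 (SE 0.64, adjusted p = 5.63e-04) on day 6. The day 2 call was lost when replicate 2 was left out of every group (-3.03, adjusted p = 0.0756). On day 10 the libraries read 3.02, 2.97 and 1.2 CPM against 9.77, 10.9 and 11.2 CPM. The difference was smaller then, at -2.23 (SE 0.61, adjusted p = 0.00561) on day 8 and -2.15 (SE 0.61, adjusted p = 0.00557) on day 10, and both calls were lost without replicate 3 with F/R/C (-1.79, adjusted p = 0.0532 on day 8 and -1.67, adjusted p = 0.0537 on day 10). The change in effect from day 2 to day 10 was 1.05 (SE 0.85, adjusted p = 0.463) and not called.

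Znrf3, a ubiquitin ligase that removes Frizzled from the cell surface and is held in check by Lgr receptors bound to R-spondin, was higher with F/R/C late in the course, but by less than the minimum fold. Its libraries overlapped between the arms on days 2, 4 and 6 and were all above on days 8 and 10. On day 10 it was 25.1, 29.6 and 27.8 CPM with F/R/C, against 14.6, 16.9 and 12.2 CPM under MyoD alone. The log2 fold changes of 0.66 (SE 0.20, adjusted p = 0.0109) and 0.92 (SE 0.20, adjusted p = 5.43e-04) had adjusted p-values under the threshold but stayed under the minimum fold. On day 10 it passed that minimum when replicate 1 or 2 of MyoD alone or replicate 3 with F/R/C was left out (1.04 to 1.14). Between day 2 and day 10 the effect differed by 1.00 (SE 0.28, adjusted p = 0.0260), just under the minimum fold, and it was called with RLE factors and with DESeq2 (1.06 in both).

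Dkk2, a secreted ligand of the Lrp co-receptors, had its highest group mean in MEFs and was lower with F/R/C than with MyoD alone late in the course. It read 249.7, 885 and 695 CPM in MEFs. On day 2 it was 35.0, 21.0 and 24.7 CPM with F/R/C, against 43.1, 28.9 and 67.9 CPM under MyoD alone, with overlapping libraries and a difference of -0.79 (SE 0.97, adjusted p = 0.688). By day 10 it was 1.35, 1.51 and 6.78 CPM with F/R/C, against 68.4, 22.7 and 300.3 CPM under MyoD alone. From day 4 on all F/R/C libraries were below. The fitted log2 difference came to -2.43 (SE 1.02, adjusted p = 0.0834), not called, on day 4, -3.01 (SE 1.05, adjusted p = 0.0317) on day 6, -4.31 (SE 1.11, adjusted p = 0.00352) on day 8 and -5.32 (SE 1.17, adjusted p = 6.11e-04) on day 10. The libraries of MyoD alone differed widely, with replicate 3 the highest on every day, from 67.9 CPM on day 2 to 300.3 CPM on day 10. Without that replicate the differences on days 8 and 10 were still called but smaller, at -2.90 and -3.73. The day 6 call was lost without replicate 3 of MyoD alone, or without replicate 2 or 3 with F/R/C (-2.98 to -1.85, adjusted p from 0.0999 to 0.228). Between day 2 and day 10 the effect changed by -4.53 (SE 1.45, adjusted p = 0.0460), a call lost on leaving out any of 10 of the 12 libraries (-4.83 to -2.95, adjusted p from 0.0588 to 0.209).

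Lef1 and Tcf7, TCF/LEF factors that carry beta-catenin to DNA, started lower with F/R/C, and Lef1 ended higher. On day 2 Lef1 was 0.938, 0.750 and 0.782 CPM with F/R/C, against 3.16, 4.19 and 5.35 CPM under MyoD alone, which gave a log2 difference of -2.35 (SE 0.53, adjusted p = 0.00423). That call was lost when replicate 1 or replicate 2 was left out of every group (-2.63, adjusted p = 0.0556 and -2.28, adjusted p = 0.114). With F/R/C the group mean then went from 0.824 ± 0.101 CPM on day 2 through 2.91 ± 1.28 CPM on day 6 to 7.39 ± 1.29 CPM on day 10. On day 10 the libraries read 8.82, 7.01 and 6.32 CPM with F/R/C against 3.52, 3.77 and 0.941 CPM with MyoD alone, all F/R/C libraries above, and the fitted log2 difference came to 1.44 (SE 0.49, adjusted p = 0.0198). The day 10 call was lost without replicate 3 of MyoD alone, the library at 0.941 CPM (1.14, adjusted p = 0.0838), or without replicate 1 with F/R/C (1.29, adjusted p = 0.0641), and in a fit of the 2 groups alone (1.52, adjusted p = 0.0636). The day 4 difference of -1.39 (SE 0.51, adjusted p = 0.0442) was lost on leaving out any single library of the 6 (-1.52 to -1.19, adjusted p from 0.0598 to 0.166). The change of the effect from day 2 to day 10 was 3.79 (SE 0.72, adjusted p = 0.00286) and was called without each single library in turn. It was not called when replicate 1 or replicate 2 was left out of every group at once (4.14, adjusted p = 0.0503 and 4.10, adjusted p = 0.0750). Tcf7 was 2.01, 1.83 and 1.15 CPM with F/R/C, against 4.09, 6.37 and 7.73 CPM under MyoD alone on day 2, all F/R/C libraries below, which gave a log2 difference of -1.86 (SE 0.53, adjusted p = 0.0230). That call was lost without replicate 2 or 3 of either arm (-1.91 to -1.64, adjusted p from 0.0623 to 0.136). Tcf7 libraries overlapped on all later days, and none of those differences was called (-0.59 to -0.16).

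Markers of some other states also differed between the arms. None of 12 muscle differentiation markers was called in the mean of days (median log2 fold change -0.05) or on any single day. Of 12 proliferation markers 11 were higher with F/R/C in the mean of days, and their summed level was 350.3 to 1290 CPM in the F/R/C libraries of days 2 to 10 against 60.3 to 555 CPM with MyoD alone. Of 12 fibroblast markers 4 were higher (Dcn, Lum, Pdgfra and Prrx1) and 3 lower (Col1a1, Col1a2 and Fn1), and none was at 0 in either arm. Their summed level was 1447 to 7369 CPM with F/R/C against 12634 to 33394 CPM with MyoD alone and 20187 to 25301 CPM in MEFs. All 4 tested epithelial markers (Cdh1, Cldn4, Krt18 and Krt8) were higher, with a summed level over the 6 markers of 5.36 to 35.9 CPM against 3.15 to 16.0 CPM, and Krt14 was at 0 in every F/R/C library. Of the other marker lists, 3 of 5 tested endothelial markers were lower, 1 of 4 immune markers was higher and 1 lower, 1 of 3 neural markers was higher, and of 11 myogenic progenitor markers 1 was higher and 1 lower in the mean of days. By day, 4 of the 11 progenitor markers were higher on days 4, 6 and 10, 3 on day 8 and none on day 2, with 1 lower on days 4, 6 and 8 and 2 on day 10. Their summed level was above that of MyoD alone without overlap on days 4, 6, 8 and 10, at 2334 to 2824 CPM against 1333 to 1954 CPM on day 4 and 1644 to 1838 CPM against 1010.4 to 1491 CPM on day 10. The part of these states in the differences of the Wnt targets was not tested.

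Some of the targets were higher than in MEFs with MyoD alone. The comparisons in this paragraph share the MEF libraries. On day 2 of MyoD alone Axin2, Nkd1 and Lef1 were higher and Dkk2 and Notum lower than in MEFs (22.4% of all genes called, 12.3% higher and 10.1% lower), with log2 fold changes of 1.5, 4.93, 1.82, -3.71 and -2.06. The Axin2 call of that day was lost without replicate 2 or 3 of either group (1.19 to 1.54, adjusted p from 0.0566 to 0.146) and that of Lef1 without MEF replicate 2 (1.40, adjusted p = 0.0511). The Notum call was lost without any single library but MEF replicate 2 (-2.46 to -1.40, adjusted p from 0.0558 to 0.225). On day 10 of MyoD alone Axin2 (3.35) and Nkd1 (6.02) were higher and no member was lower (18.9% of all genes, 14.3% higher and 4.64% lower), although Dkk2 was called lower without replicate 3 of MyoD alone (-3.76, adjusted p = 0.0173). On day 2 with F/R/C Axin2 (2.93), Nkd1 (5.27) and Lgr5 (2.62) were higher and Dkk2 (-4.50) and Lgr6 (-3.66) lower (20.4% of all genes, 11.5% higher and 8.93% lower). The Lgr5 call was lost without replicate 3 with F/R/C (2.00, adjusted p = 0.0587). On day 10 with F/R/C Axin2 (4.12), Nkd1 (6.14), Lgr5 (5.30), Lef1 (2.62) and Znrf3 (1.72) were higher and Dkk2 (-7.55) and Lgr6 (-2.27) lower (34.8% of all genes, 19.0% higher and 15.8% lower). With 1 replicate number left out of every group, further calls were lost for Dkk2 on day 2 of MyoD alone (-4.03, adjusted p = 0.0608) and for Lgr6 on day 10 with F/R/C (-1.89, adjusted p = 0.0691). Among the members called higher, Nkd1 had the largest log2 fold change over MEFs in each of these 4 comparisons.

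**Figure D3:**
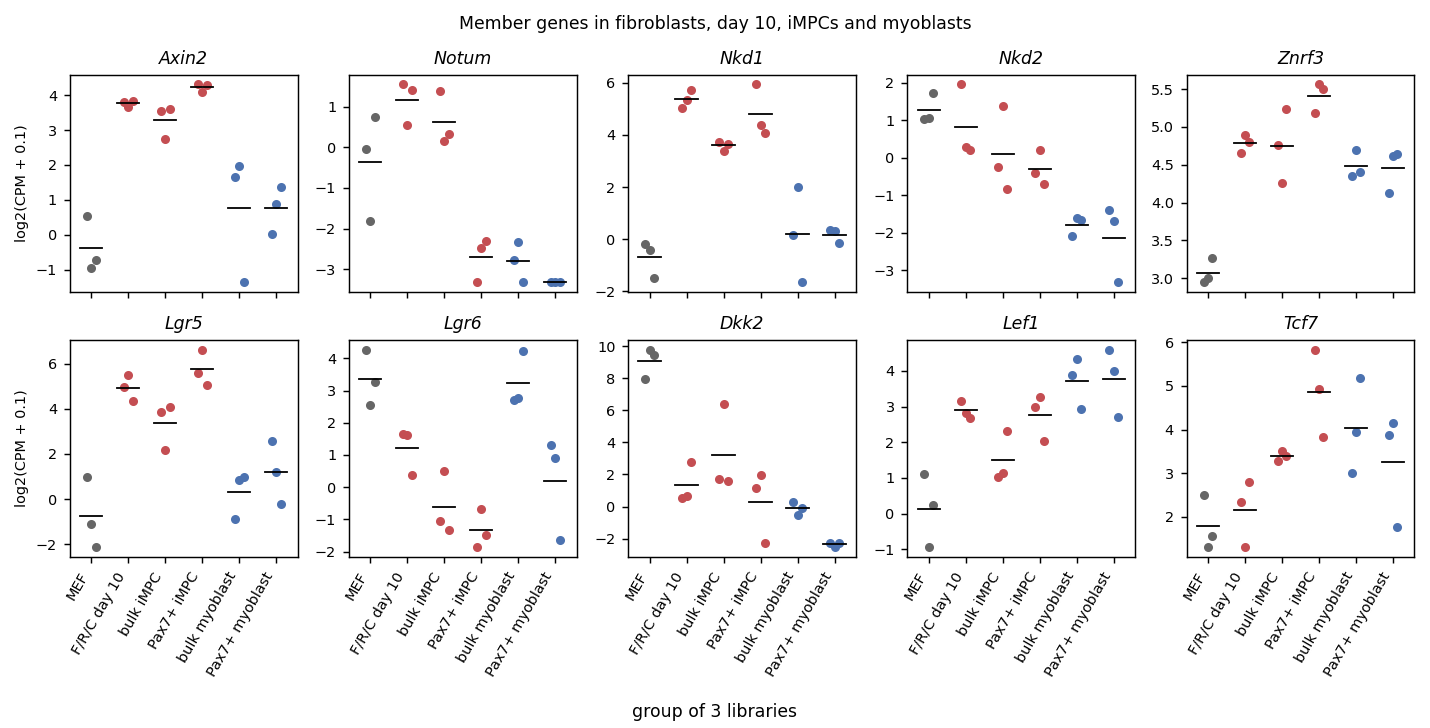
Level of each gene as log2(CPM + 0.1) in MEFs, F/R/C day 10, bulk and Pax7+ iMPCs, and bulk and Pax7+ myoblasts, where points are libraries and bars are means of the plotted values. Axin2, Lgr5 and Nkd1 are high in F/R/C day 10 and iMPC libraries, and Lef1 is highest in the myoblast groups.

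Bulk iMPCs differed from MEFs in 8 of the 10 genes and from F/R/C day 10 in 3. Compared with MEFs, Axin2 (3.68), Lef1 (1.31), Lgr5 (3.87), Nkd1 (4.35), Tcf7 (1.53) and Znrf3 (1.74) were higher and Dkk2 (-4.32) and Lgr6 (-4.11) lower (35.5% of all genes called, 19.2% higher and 16.2% lower). The Lef1 call was lost without bulk iMPC replicate 3 or MEF replicate 2 or 3 (0.83 to 1.26, adjusted p from 0.0734 to 0.208). Compared with F/R/C day 10, Nkd1 (-1.79, SE 0.50, adjusted p = 0.00976) and Lgr6 (-1.83, SE 0.63, adjusted p = 0.0366) were lower and Dkk2 (3.22, SE 1.08, adjusted p = 0.0309) was called higher (9.57% of all genes, 3.33% higher and 6.24% lower). Dkk2 read 3.18, 85.5 and 2.90 CPM in bulk iMPCs, so that the call rests on replicate 2. Without that library the log2 fold change was -0.10, adjusted p = 0.968, and without replicate 1 or replicate 2 of F/R/C day 10 the call was lost as well (2.86 and 2.93). The Lgr6 call was lost without replicate 1 or 3 of bulk iMPCs or replicate 1 or 2 of F/R/C day 10 (-1.69 to -1.52, adjusted p from 0.110 to 0.142). In a fit of the 2 groups alone only Nkd1 was called. With replicate 1 left out of every group Nkd1 was not called (-2.01, adjusted p = 0.0890). Against MEFs Tcf7 was not called without replicate 2 of every group (1.26, adjusted p = 0.154).

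Pax7+ iMPCs differed from bulk iMPCs in 6 of the 10 genes. Compared with bulk iMPCs, Pax7+ iMPCs had more Lgr5, Tcf7, Nkd1 and Lef1 and less Notum and Dkk2 (30.3% of all genes called, 9.88% higher and 20.5% lower, with a median of -0.13 over all genes tested). Lgr5 was 47.8, 98.7 and 33.6 CPM in Pax7+ iMPCs and 14.5, 4.37 and 16.8 CPM in bulk iMPCs, without overlap, which gave a log2 difference of 2.33 (SE 0.69, adjusted p = 0.00599). Tcf7 was 56.8, 30.4 and 14.2 CPM in Pax7+ iMPCs and 9.55, 11.3 and 10.5 CPM in bulk iMPCs, also without overlap, at 1.70 (SE 0.50, adjusted p = 0.00586). The Lgr5 call was lost when replicate 2 was left out of every group (1.46, adjusted p = 0.207). Nkd1 (1.45, SE 0.49, adjusted p = 0.0159) and Tcf7 both lost their call without Pax7+ iMPC replicate 1 (0.63, adjusted p = 0.306 and 1.10, adjusted p = 0.0829). Lef1 (1.25, SE 0.49, adjusted p = 0.0327) lost it without replicate 1 or 2 of either group (1.03 to 1.19, adjusted p from 0.0706 to 0.132). Notum had 0, 2 and 2 reads in Pax7+ iMPCs and 91, 36 and 43 reads in bulk iMPCs, a ratio of bulk to sorted of 26.1 (exact 95% interval 10.0 to 97.1, counting error only). The lower Dkk2 (-3.88, SE 1.12, adjusted p = 0.00500) again rested on bulk iMPC replicate 2, without which it was -0.50, adjusted p = 0.711. In a fit of the 2 groups alone Lef1, Nkd1 and Dkk2 were not called (adjusted p from 0.0523 to 0.110). In the same comparison 10 of 12 muscle differentiation markers and 7 of 12 fibroblast markers were lower in the sorted cells, with summed levels of 1414 to 1949 CPM against 22483 to 29268 CPM and of 1435 to 2934 CPM against 2883 to 4666 CPM. Of 12 proliferation markers 3 were higher, with summed levels of 2296 to 2870.0 CPM against 745 to 1576 CPM. The part of these markers was not tested. The sorted libraries also differed from the unsorted ones in the fragment length setting of the deposited files, and sorting and that setting cannot be told apart.

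Bulk iMPCs differed from bulk myoblasts in 8 of the 10 genes. Bulk iMPCs exceeded bulk myoblasts in Axin2 (2.06, SE 0.52, adjusted p = 0.00268), Lgr5 (3.13, SE 0.73, adjusted p = 0.00142), Nkd1 (2.74, SE 0.53, adjusted p = 2.15e-04), Nkd2, Notum and Dkk2 and were lower in Lef1 (-2.23, SE 0.50, adjusted p = 8.67e-04) and Lgr6 (-3.99, SE 0.67, adjusted p = 3.38e-05), beside 19.6% of all genes called (10.9% higher and 8.70% lower). Axin2 was 11.5, 6.65 and 11.9 CPM in bulk iMPCs and 3.05, 3.83 and 0.291 CPM in bulk myoblasts. Lef1 was 1.92, 2.11 and 4.89 CPM in bulk iMPCs and 14.5, 20.0 and 7.53 CPM in bulk myoblasts. Neither gene overlapped between the groups. Notum had 1, 4 and 0 reads in bulk myoblasts, and the ratio of bulk iMPCs to them was 27.9 (11.7 to 87.1, exact 95% interval). The Dkk2 call was lost without bulk iMPC replicate 2 (1.87, adjusted p = 0.178), and that of Nkd2 without it or without bulk myoblast replicate 1 (1.58 to 2.45, adjusted p from 0.0609 to 0.181). In a fit of the 2 groups alone Axin2 (2.02, adjusted p = 0.161), Nkd1, Nkd2 and Dkk2 were not called. The Lef1 call was lost when replicate 2 was left out of every group (-1.70, adjusted p = 0.0615). In the same comparison 11 of 12 fibroblast markers were higher and 1 lower in bulk iMPCs (median log2 fold change 5.29), with overlapping summed levels of 2883 to 4666 CPM against 1213 to 7628 CPM. The summed muscle differentiation markers of bulk myoblasts were 33394, 19271 and 1165 CPM, so replicate 3 stood apart, and no call named here was lost without that library alone. The part of these markers was not tested.

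Among sorted cells, Pax7+ iMPCs exceeded Pax7+ myoblasts in Axin2, Nkd1, Lgr5, Tcf7 and Dkk2 and were lower in Lgr6 (30.0% of all genes called, 12.4% higher and 17.6% lower). Axin2 was 19.7, 16.8 and 19.4 CPM in Pax7+ iMPCs and 0.918, 1.73 and 2.50 CPM in Pax7+ myoblasts, which gave a log2 difference of 3.45 (SE 0.55, adjusted p = 6.32e-06). Nkd1 was 61.1, 20.5 and 16.8 CPM against 1.16, 1.13 and 0.815 CPM, at 4.96 (SE 0.60, adjusted p = 7.45e-08), and Lgr5 differed by 4.33 (SE 0.76, adjusted p = 2.37e-05). In none of these 3 genes did the groups overlap. Dkk2 had 3, 2 and 2 reads in Pax7+ myoblasts, and the ratio of Pax7+ iMPCs to them was 23.3 (11.03 to 59.0, exact 95% interval). Its call was lost without any single library but Pax7+ iMPC replicate 3 (3.61 to 4.50, adjusted p from 0.0507 to 0.123), that of Lgr6 without replicate 1 of either group (-1.87 to -1.65, adjusted p from 0.0552 to 0.0736), and that of Tcf7 without Pax7+ iMPC replicate 1 or Pax7+ myoblast replicate 3 (0.92 to 1.06, adjusted p from 0.0840 to 0.156). In a fit of the 2 groups alone Axin2, Nkd1 and Lgr5 were called, Tcf7 and Lgr6 were not, and Dkk2 and Notum did not pass its filter on low counts. Notum was at 0 reads in all Pax7+ myoblast libraries, and 3 reads correspond to 0.106 to 0.163 CPM there. In the same comparison 9 of 12 muscle differentiation markers were lower in Pax7+ iMPCs (summed levels of 1414 to 1949 CPM against 4426 to 15563 CPM), 6 of 12 proliferation markers were higher (2296 to 2870.0 CPM against 640.1 to 1249 CPM) and 4 of 12 fibroblast markers were higher. The part of these markers was not tested. Between the myoblast groups only Lgr6 was called, lower in Pax7+ than in bulk myoblasts at -2.84 (SE 0.63, adjusted p = 0.00337) (6.23% of all genes, 2.20% higher and 4.03% lower). It was not called in a fit of these 2 groups alone (-2.86, adjusted p = 0.436) or without replicate 3 of every group (-1.63, adjusted p = 0.0740). The fragment length setting also differed between these 2 groups, and sorting and that setting cannot be told apart.

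Ordered by mean level over the 15 groups, neighbouring groups mostly overlapped. For Axin2 the order ran from Pax7+ iMPCs (18.6 ± 1.61 CPM) through F/R/C days 4, 6 and 8 (17.7 ± 2.81, 17.4 ± 1.37 and 16.7 ± 1.08 CPM), F/R/C day 10 (13.5 ± 0.845 CPM) and bulk iMPCs (10.0 ± 2.93 CPM) down to MEFs (0.763 ± 0.522 CPM). In 2 of the 14 neighbour pairs the libraries did not overlap, those between F/R/C days 8 and 10 and between F/R/C day 10 and bulk iMPCs. Lgr5 was highest in Pax7+ iMPCs (60.1 ± 34.2 CPM) and F/R/C day 10 (32.1 ± 12.1 CPM) and lowest with MyoD alone on day 8 (0.406 ± 0.246 CPM). It had 2 such gaps, below F/R/C day 10 and below F/R/C day 8. Nkd1 was highest with MyoD alone on day 4 (88.0 ± 30.2 CPM) and lowest in MEFs (0.565 ± 0.279 CPM), with 3 gaps. Lef1 was highest in Pax7+ myoblasts (15.5 ± 8.84 CPM) and lowest on F/R/C day 2, and no neighbouring pair was apart. Tcf7 was highest in Pax7+ iMPCs (33.8 ± 21.5 CPM) and lowest on F/R/C day 2 (1.66 ± 0.453 CPM), which lay apart from the MEFs above it. Znrf3 was highest in Pax7+ iMPCs (42.8 ± 5.76 CPM) and lowest in MEFs (8.34 ± 1.03 CPM), apart from the group above. Lgr6 was highest with MyoD alone on day 8 (13.8 ± 1.94 CPM) and lowest in Pax7+ iMPCs (0.319 ± 0.184 CPM), with 1 gap between MyoD day 2 and F/R/C day 8. Dkk2 was highest in MEFs (610.0 ± 326 CPM) and lowest in Pax7+ myoblasts (0.0951 ± 0.0212 CPM), with 2 gaps. Nkd2 was highest on F/R/C day 2 (5.18 ± 2.70 CPM) and lowest in Pax7+ myoblasts (0.165 ± 0.147 CPM), with 1 gap, and Notum was highest on F/R/C day 6 (4.43 ± 3.05 CPM) with none.

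Levels of different genes can be set against each other only per transcript length, for which the deposited TPM values were summed by gene. In MEFs Dkk2 led with 284 ± 146 TPM, against 0.506 ± 0.449 TPM for Axin2. On day 4 of MyoD alone Nkd1 led with 77.1 ± 23.6 TPM. On day 10 with F/R/C the leading members were Nkd1 (43.4 ± 9.23 TPM) and Lgr5 (12 ± 4.68 TPM). In Pax7+ iMPCs Nkd1 (22.9 ± 17.2 TPM), Lgr5 (21.2 ± 12.9 TPM) and Tcf7 (20.8 ± 13.6 TPM) stood near each other within their spread. In bulk myoblasts Tcf7 (16.1 ± 12.3 TPM) and Lef1 (13.7 ± 4.2 TPM) led.

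The files resolve transcripts, and for 2 members the split bears on what the gene sum means. On day 4 with F/R/C a retained-intron transcript took 29.5% to 80.3% of the Notum reads of a library. The share was also high in other groups, at 71.3% to 80.5% on day 8 with F/R/C and 58.8% to 85.7% in bulk iMPCs. On day 10 of MyoD alone, with few reads, it was 58.3% to 90.9%. The Notum sums and ratios are therefore not of coding Notum alone. Lef1 reads were split over transcripts with different starts. On day 2 the transcript Lef1-202 held 69.9% of the pooled Lef1 reads with F/R/C and 0 reads with MyoD alone, where Lef1-201 held 58.7%. The shares of a transcript varied strongly between libraries of a group at these depths, and no difference between transcripts was tested.

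The genes whose mean profile over the 15 groups was most like that of Axin2, by Pearson correlation of log2 CPM, were Cmtm5 (0.96), Cited1 (0.95), Peg10 (0.95), Ehd3 (0.94) and Itm2a (0.94). Cited1, a transcriptional co-regulator, had 18.4 ± 0.553 CPM on day 4 with F/R/C, against 2.69 ± 1.23 CPM under MyoD alone. Itm2a, a membrane protein found in developing muscle, had 1186 ± 160.2 CPM with F/R/C on that day, against 587 ± 237 CPM under MyoD alone. Among the genes most like Lef1 were Ptpn2, 4930563E22Rik, Cfap298 and Pogz (0.87 each). The correlations are across groups that share culture and library preparation and carry no test.

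The rest of the pathway was divided as well. Of 19 Wnt ligand genes 11 were tested, and in the mean of days 2 were higher with F/R/C and 6 lower (median log2 fold change -1.09). Wnt4 was 32.4 ± 6.65 CPM on day 4 with F/R/C, against 5.19 ± 0.990 CPM under MyoD alone, and its mean of days was 2.21 (SE 0.28, adjusted p = 5.11e-08). Wnt6 was higher too, at 2.68 (SE 0.46, adjusted p = 9.16e-06). The lower ligands included Wnt9a at -1.71 (SE 0.18, adjusted p = 8.44e-10), Wnt10b at -1.89 (SE 0.24, adjusted p = 9.10e-08) and Wnt2 at -2.76 (SE 0.44, adjusted p = 2.79e-06). Of 16 receptor genes, all tested, 2 were higher and 2 lower (median -0.22). Fzd4, a Frizzled receptor, had 97.5 ± 17.5 CPM on day 10 with F/R/C, against 6.76 ± 2.67 CPM under MyoD alone, and its mean of days was 2.91 (SE 0.25, adjusted p = 1.35e-11). Ror1, a receptor of non-canonical Wnts, was higher at 1.54 (SE 0.47, adjusted p = 0.00559), and Fzd9 and the co-receptor Lrp5 were lower at -1.15 (SE 0.24, adjusted p = 1.01e-04) and -1.12 (SE 0.09, adjusted p = 2.33e-12).

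Secreted modulators gave the widest range. Of 17 genes 14 were tested, with 5 higher and 2 lower (median 0.38). Wif1, a secreted Wnt-binding inhibitor, was 0.323 ± 0.298 CPM on day 4 with F/R/C, against 48.3 ± 22.9 CPM under MyoD alone, and its mean of days was -5.25 (SE 0.37, adjusted p = 1.90e-13). Sost, an inhibitor that binds Lrp5 and Lrp6, was lower at -2.40 (SE 0.55, adjusted p = 3.60e-04). Sfrp2, a secreted Frizzled-related protein, was 32.3 ± 8.64 CPM against 2.31 ± 0.744 CPM on day 4, with a mean of days of 3.40 (SE 0.38, adjusted p = 4.58e-09). Sfrp1 (2.56, SE 0.46, adjusted p = 1.26e-05) and the R-spondin Rspo4 (4.26, SE 0.70, adjusted p = 6.38e-06) were higher as well. None of the 19 genes of intracellular signalling, among them Ctnnb1 and Gsk3b, was called by edgeR in the mean of days (median -0.14). At an unadjusted p under 0.05, 4 were higher and 8 lower. Of the 19 genes 11 had an adjusted p under 0.05 without reaching the minimum fold, and DESeq2 called 0. By day, 1 gene was called higher on each of days 4, 6 and 8, 1 was lower on each of days 8 and 10, and none was called on day 2. Of 14 other target genes 12 were tested, with none higher and 5 lower (median -0.84). Ccn4, a matricellular protein, was 32.4 ± 0.873 CPM on day 2 with F/R/C, against 327 ± 30.5 CPM under MyoD alone, and its mean of days was -2.80 (SE 0.16, adjusted p = 4.63e-15). Msx2, a homeobox factor, was lower at -1.37 (SE 0.30, adjusted p = 2.28e-04). Over all genes tested edgeR called 11.6% higher and 10.5% lower in this average, and no share is given for the unadjusted p or DESeq2.

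**Figure D4:**
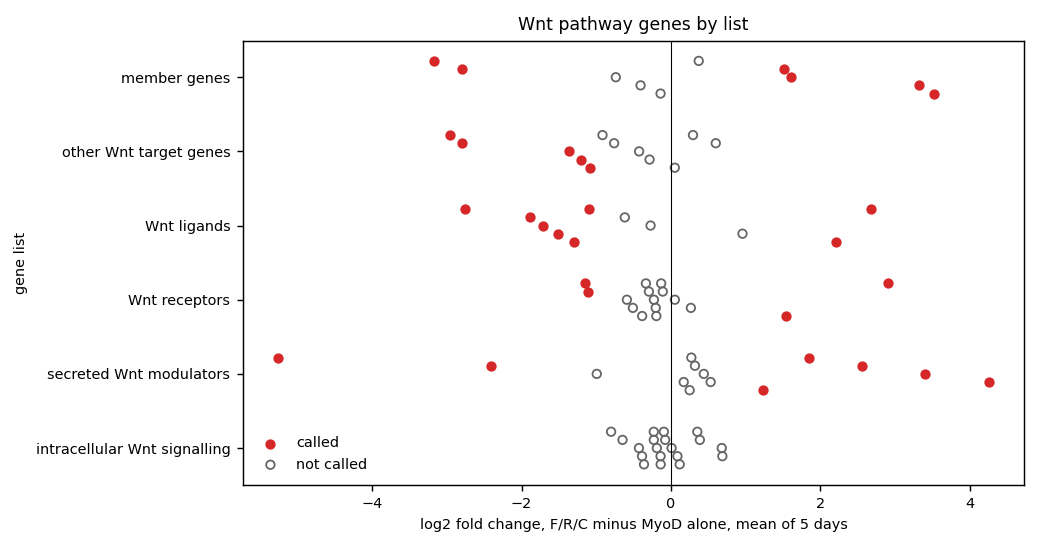
Log2 fold change of F/R/C minus MyoD alone in the mean of 5 days for the genes of each pathway list (rows), where each point is a gene, filled if called. The 19 intracellular genes lie within 1 of zero, while the 10 targets and the secreted modulators reach beyond 3 on both sides.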

How the data were processed

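The authors deposited kallisto output per library, with expected counts (estimated read counts) and TPM (length-scaled abundance) for 121843 transcripts, per the file headers. The submitters' processing notes name bcl2fastq 2.19, Trimmomatic 0.36, kallisto 0.44, edgeR 3.28 and GRCm38.p6. Libraries were stranded poly(A) preparations, per the labels' protocols. Expected counts were summed by gene with GENCODE M21 (739 transcripts not matched; 99.4% to 99.8% of reads kept) and rounded. Genes were filtered with filterByExpr, TMM-scaled and fitted with edgeR 4.0.16 (R 4.3.3) as 1 coefficient per group over all 45 libraries. Quasi-likelihood tests were adjusted by Benjamini-Hochberg over 17325 genes. Contrasts were F/R/C minus MyoD alone per day, their mean, the day 10 minus day 2 effect, and 10 contrasts of reference groups. On simulated data 132 of 200 genes changed 4-fold were recovered for day 2, with 4 false calls. The simulated libraries were independent and only the F/R/C day 2 group was changed, so these rates need not hold for the real libraries.

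Alternatives were RLE factors, DESeq2 1.42.0, other filters, no minimum fold, the groups compared alone, a replicate block, and leaving out libraries. Left out were single libraries, or 1 replicate number from every group at once. The block fitted 1 effect per replicate number, shared by all 15 groups. Same-numbered libraries deviated together on days 2, 4 and 6 (correlations of 0.346 to 0.375, 0.241 to 0.332 and 0.223 to 0.362), so the numbers pair the arms there. Replicates of a group correlated at 0.929 to 0.984, and none was a duplicate. The members and gene lists were chosen with earlier results of these data known. Named pathway genes are up to 3 higher and 3 lower called genes of each list, by size of the log2 fold change. Reads of Axin2 and Notum were whole in every library (tolerance 0.001 reads), and those of Nkd2 were within 0.00646 reads of whole numbers. The remaining members share reads with another gene to some degree. Named genes outside the members also include the 5 genes closest in profile to Axin2 and to Lef1. Results for 2 of the genes these rules name are not reported here. A floor of 3 reads was chosen for detection, at depths of 15.6 to 36.3 M reads. Intervals cover counting error only.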

Additional observations from a re-analysis of the deposited data

Results flagged for a closer look

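For 3 members the effect of F/R/C on day 10 differed from that on day 2 in a test of the difference itself (edgeR's quasi-likelihood test). The log2 difference was 4.31 for Lgr5, 3.79 for Lef1 and -4.53 for Dkk2. Lgr5 and Lef1 were higher and Dkk2 lower, relative to MyoD alone, on day 10 than on day 2. The Dkk2 difference was -2.95, adjusted p = 0.209 without replicate 3 of MyoD alone on day 10. Groups of 3 libraries were not tested for single outlying libraries.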

How the results depend on the processing

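Counts of members called depended on the libraries left out, either 1 library or 1 replicate number of every group. The calls over all genes in these leave-out fits are not given here, so the ranges cannot be read as particular to the members. The counts of members ran from 0 to 3 on day 2 (3 with all libraries), 3 to 5 on day 4 (5) and 2 to 5 on day 6 (5). They ran from 3 to 5 on day 8 (5), 3 to 7 on day 10 (5) and 0 to 4 for the change of effect (3), and stayed at 6 for the mean of days. Against MEFs they ran from 3 to 5 for MyoD day 2, 2 to 5 for MyoD day 10, 4 to 5 for F/R/C day 2, 6 to 8 for F/R/C day 10 and 6 to 8 for bulk iMPCs. They ran from 0 to 6 for bulk iMPCs against F/R/C day 10, 5 to 8 against bulk myoblasts, 3 to 6 for Pax7+ against bulk iMPCs, 4 to 8 for Pax7+ iMPCs against Pax7+ myoblasts and 0 to 1 between the myoblast groups. Day 2 gave 5 calls with DESeq2, whose calls over all genes are not given. It gave 6 in a fit of the groups compared alone. That fit gave 3 for MyoD day 2 against MEFs, 1 for bulk iMPCs against F/R/C day 10, 4 against bulk myoblasts, 3 for Pax7+ against bulk iMPCs, 3 for Pax7+ iMPCs against Pax7+ myoblasts and 0 between the myoblast groups, where DESeq2 gave 2. Dkk2 in bulk iMPCs against F/R/C day 10 reversed to -0.41 without replicate 2 of every group. It reversed to -0.10 without that of bulk iMPCs alone, the library in which it was high, and reached 4.90 without replicate 3 of every group. The cause of the other changes was not tested.

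With the replicate block 1 member was higher and 3 lower on day 2, and 4 higher and 2 lower on day 4, the change being the Nkd2 call in both. The share of all genes called with the block is not given here, so these counts cannot be read as particular to the members. The block also added Dkk2 for MyoD day 10 against MEFs (-2.60), Notum for F/R/C day 10 against MEFs (1.40), and Nkd2 (2.19) and Notum (3.73) for Pax7+ iMPCs against Pax7+ myoblasts. On days 8 and 10 the same-number correlations were 0.0791 to 0.234 and 0.0617 to 0.264, so not every pair passed 0.1 there, nor in the comparisons with other groups, although replicate 3 has the same sex-linked pattern in all time-course groups. The block left the 6 calls of the mean of days in place. Over all genes, the calls of day 2 went from 854 to 1420 in a fit of the groups compared alone. That fit took MyoD day 10 against MEFs from 3279 to 2019, Pax7+ iMPCs against Pax7+ myoblasts from 5199 to 3424, bulk iMPCs against bulk myoblasts from 3396 to 1265, and the myoblast groups from 1080 to 0. The change of effect went from 1041 to 649 with no filter on low counts. Differences in Notum and in low Lgr5 groups rest on few reads.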
